A study of Mus musculus with 6 samples.

Results

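The genes described here are the mouse Rab family, the small GTPases Rala, Ralb, Cdc42, Arf6 and Rhoq, and a short set of their partners, namely Rab3ip, 4 Rab11 family interacting proteins (Rab11fip1, Rab11fip2, Rab11fip3 and Rab11fip5) and the myosin motors Myo5a and Myo5b. Membership goes by symbol, through the match of each probe's transcript accession to RefSeq, and no measured value enters the rule, although the family was picked for description with earlier results of these data known. The array held 69 of them on 95 probes, among 20659 genes with a symbol. Of the 69, 61 passed the filter on dim probes and were tested among 22810 features, of which 15544 have a symbol and the rest are transcripts with no symbol here, each counted under the name the file gives it. All are called genes below, and shares of all genes are shares of the 22810. Liver RNA of Sec15 KO and WT mice was compared on one-colour (Cy3) arrays, with 3 Sec15 KO and 3 WT samples, all from untreated male mice 6 weeks old. The series as a whole concerns Sec15, STAT3 traffic and blood stem cells. The labels name the genotype only as Sec15 KO. They do not say which Sec15 gene or which part of it was removed, whether the deletion was in the whole body, or that each sample came from its own animal. The p-values therefore rest on the spread among these 6 samples, part of which may be technical. One number recurs in the names under which WT replicates 1 and 2 were deposited, so both may come from 1 animal. Over the genes tested these 2 arrays correlated by 0.9804. WT replicate 3 correlated by 0.9884 with replicate 1 and by 0.9913 with replicate 2. Whether any share an animal was not tested.

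Rab GTPases are molecular switches of vesicle traffic: loaded with GTP by exchange factors, they sit on a membrane through a lipid tail and recruit tethers, motors and fusion factors, until an activating protein makes them hydrolyse the GTP. Sec15 is the subunit of the exocyst, the tether of secretory and recycling vesicles at the plasma membrane, that binds GTP-loaded Rab11, and its yeast form binds the Rab Sec4. Ral GTPases bind other exocyst subunits, as do Arf6 and Cdc42. In hepatocytes these GTPases serve the uptake of ligands from blood, the sorting of receptors in endosomes, the delivery of transporters to the bile canaliculus and the secretion of plasma proteins and lipoproteins.

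Sec15 is encoded in the mouse by Exoc6 and Exoc6b. Probe A_52_P219661 of Exoc6 stood well above background on none of the Sec15 KO arrays and on 1 WT array, and the Exoc6b probe A_52_P265544 on none of the 6 arrays. The second Exoc6b probe, A_55_P1997415, read 0.14, -0.03 and -0.06 in Sec15 KO liver, against 0.31, 0.78 and 0.55 in WT liver, on a log2 scale relative to each array's 75th percentile, which is the scale of all signals below. Whether any of these probes lies in the deleted stretch is not given, so they do not check the genotype labels. All 8 hepatocyte markers on the array were well above background on all 6 arrays. Between 64.8% and 65.4% of probes were well above background on the Sec15 KO arrays and between 67.3% and 70.3% on the WT arrays. The scan times in the file headers place Sec15 KO replicate 2 with the 3 WT arrays in scan 1, and Sec15 KO replicates 1 and 3 in scan 2. For each gene past the threshold the text therefore also gives the difference of Sec15 KO replicate 2 from the WT mean within scan 1, which is also the estimate of the fit with scan as a block. The adjusted p given beside it is that of this block fit.

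Most of these genes had a higher signal in Sec15 KO liver, by small amounts. Of the 61 tested, 14 rose (23.0% of them) at a limma Benjamini-Hochberg adjusted p under 0.05, where 17.4% of all genes tested rose. A further 3 fell (4.92%), where 12.2% of all genes fell, and the 17 in either direction were 27.9% of the 61, where 29.6% of all genes passed. The number that passed is therefore near the background, and the median difference was 0.21 for these genes and 0.06 for all genes. The difference was positive in 45 of the 61 (73.8%) and in 54.6% of all genes. All 3 Sec15 KO values lay above all 3 WT values in 26 of the 61 (42.6%), where 30.6% of all genes did so, and below them in 6 (9.84%), where 20.2% did so. The exact two-sided permutation test on 3 against 3 samples cannot go below p = 0.1. In whole liver, fewer cells of a type and less RNA per cell cannot be told apart.

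**Figure D1:**
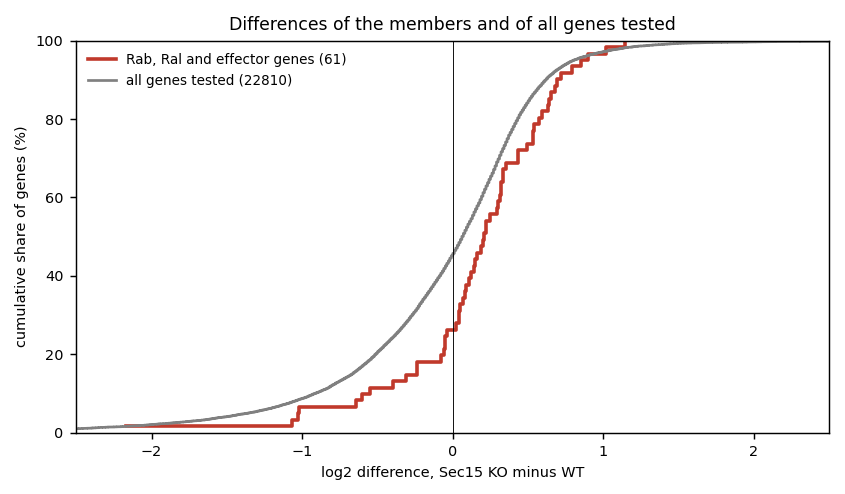
Cumulative share of genes (vertical axis, %) by the log2 difference of Sec15 KO minus WT (horizontal axis), for the 61 Rab, Ral and effector genes (red) and all 22810 genes tested (grey). The red curve lies below the grey one from -1 to 0.5, with medians of 0.21 and 0.06.

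Brightness of the probe moved with the difference over the whole array. The median difference of all genes ran between -0.29, in the dimmest decile, and 0.29, in the brightest, and the median brightness percentile of the 61 genes was 65.8. In deciles 8 and 9, which hold the most members, 13 members had a median difference of 0.33 against 0.21 for all genes, and 12 had one of 0.38 against 0.24. In each of these deciles 6 members passed the test, where 37.6% of all genes passed in decile 8 and 38.0% in decile 9. The other deciles held between 2 and 7 members each. Their median was above that of all genes in deciles 2, 3, 4 and 6, and below it in decile 1 (-0.47 against -0.29), decile 5 (-0.04 against -0.01), decile 7 (0.02 against 0.14) and decile 10 (0.25 against 0.29). After cyclic loess, which removes such a trend between arrays, 10 members were higher (10.8% of all genes) and 2 lower (12.5%), with 23.3% of all genes called in either direction, and the median was 0.10 against -0.02 for all genes. With scan as a block, 3 members were higher (5.08% of all genes) and 1 lower (4.68%), with 9.75% of all genes called in either direction. The 4 were Cdc42, Rab30, Rab5a and Rab29. Many calls were lost when 1 array was left out, in fits that also held fewer arrays. Of all genes, 29.6% passed with all 6 arrays. Without Sec15 KO replicate 3 the share was 4.36%, and without WT replicate 3 it was 2.70%. Without Sec15 KO replicate 3, and likewise without WT replicate 3, Cdc42 and Rab30 kept their calls and the other 15 lost theirs. Their adjusted p then lay between 0.0533 (Rab29) and 0.171 (Rab3c) without the Sec15 KO array, and between 0.0608 (Rab29) and 0.171 (Rab3c) without the WT array. Without Sec15 KO replicate 1, 6 of the 17 kept their calls (11.7% of all genes passed), and 5 did without WT replicate 2 (9.90%). All 17 called members had Sec15 KO replicate 2 outside the WT range on the side of their call. The calls were made with that array among the 6, so this count adds no separate support. The same share of all called genes is not given here. Among the 17, WT replicate 2 was the WT array farthest from the Sec15 KO arrays in 13 and WT replicate 1 the nearest in 15, as in 67.9% and 71.1% of all called genes.

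**Figure D2:**
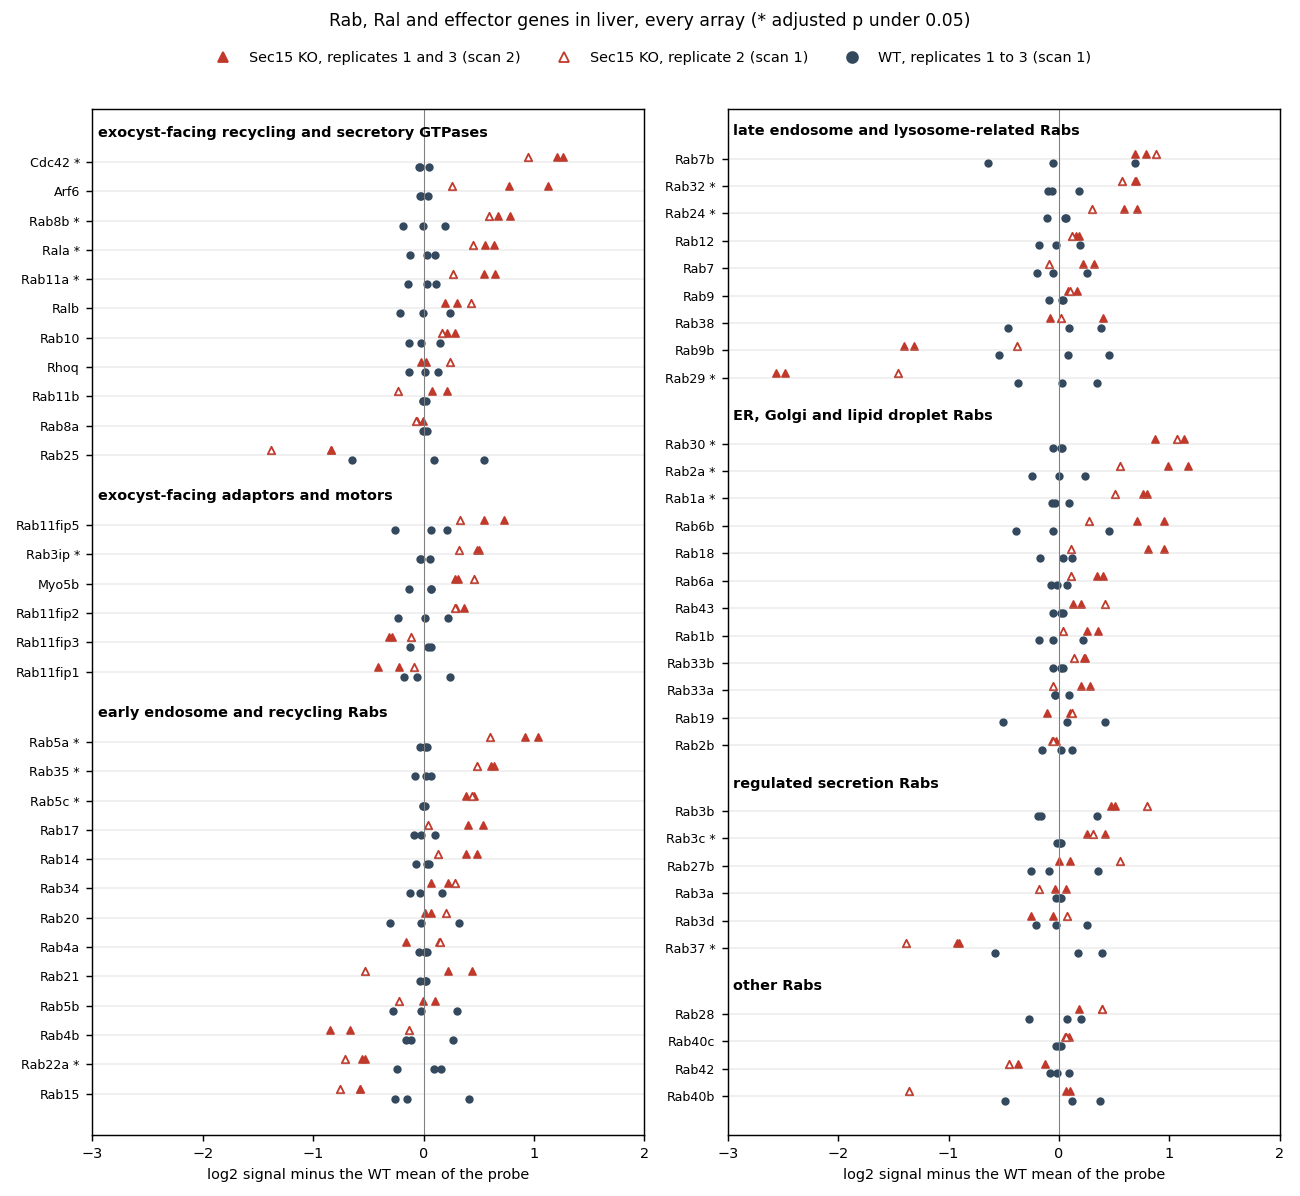
Signal of every array (log2, horizontal axis) minus the WT mean of the same probe, for the 61 members in rows by role. Triangles are Sec15 KO arrays (open for replicate 2, which shares scan 1 with WT), dots are WT arrays, and a star marks an adjusted p under 0.05. Cdc42, Rab30 and Rab5a lie clear of WT on the right and Rab29 on the left, with Rab29 replicate 2 nearer to WT than replicates 1 and 3.

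The counts of each role group below are to be read beside all genes, of which 17.4% rose and 12.2% fell. Their median difference was 0.06, or 0.08 within scan 1. The GTPases that meet the exocyst come first. Of 11 tested, 4 rose, none fell and the median difference was 0.30 (0.26 within scan 1). The median brightness percentile of the 11 was 68.9, and all genes of decile 7 had a median difference of 0.14. The 4 were Cdc42, Rab8b, Rala and Rab11a. Cdc42, a GTPase that sets cell polarity, read 3.93, 3.62 and 3.88 in Sec15 KO liver and 2.72, 2.63 and 2.64 in WT liver. The Sec15 KO arrays lay more than the whole WT range above WT, with replicate 2 the lowest of them. Cdc42 rose by 1.14 on the log2 scale (SE 0.11, 2.21-fold, limma adjusted p = 0.00623). The difference was 0.96 within scan 1, with an adjusted p of 0.0243 with scan as a block. The second Cdc42 probe, A_52_P229728, read 0.65, -0.02 and 0.39 in Sec15 KO liver and 0.39, -0.03 and 0.16 in WT liver. On that probe the groups overlapped, and its difference of 0.17 did not pass the test (limma adjusted p = 0.55), so the rise of Cdc42 rests on 1 of its 2 probes.

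Rab8b, which carries vesicles from the trans-Golgi and recycling endosomes to the cell surface, read -1.42, -1.61 and -1.53 in Sec15 KO liver and -2.01, -2.39 and -2.21 in WT liver. It rose by 0.68 (SE 0.13, 1.61-fold, limma adjusted p = 0.0164), with 0.60 within scan 1, where the call was lost (adjusted p = 0.0832). The groups did not overlap. Its paralogue Rab8a read between -0.05 and 0.01 in Sec15 KO liver and between 0.01 and 0.05 in WT liver (difference -0.05, adjusted p = 0.674). Rala, which binds the exocyst subunits Exoc2 and Exoc8, read 2.36, 2.17 and 2.28 in Sec15 KO liver and 1.82, 1.60 and 1.75 in WT liver. It rose by 0.54 (SE 0.11, 1.46-fold, limma adjusted p = 0.0183), without overlap, with 0.44 within scan 1 (adjusted p = 0.086). Its second probe differed by 0.71 and did not pass (limma adjusted p = 0.128). Ralb, which shares those partners, differed by 0.30 (SE 0.15) with overlapping groups and did not pass (adjusted p = 0.156).

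Rab11a, the recycling endosome GTPase whose active form binds Sec15, read 1.15, 0.77 and 1.05 in Sec15 KO liver and 0.61, 0.36 and 0.53 in WT liver. The groups did not overlap, and Sec15 KO replicate 2 lay nearest to WT. Rab11a rose by 0.49 (SE 0.14, 1.41-fold, limma adjusted p = 0.0443). Its call ended within scan 1, where the difference was 0.27 (adjusted p = 0.24), and after cyclic loess (0.34, adjusted p = 0.0818). Rab11b, a close relative of Rab11a, read 0.80, 0.36 and 0.67 in Sec15 KO liver and 0.58, 0.61 and 0.58 in WT liver, and its difference of 0.02 did not pass (adjusted p = 0.911). Rab25, the form of epithelia, read -2.27, -2.81 and -2.27 in Sec15 KO liver and -2.08, -0.88 and -1.34 in WT liver. All its Sec15 KO values were below WT, but WT spread over more than 1 log2 unit and the difference of -1.02 (SE 0.33) did not pass (adjusted p = 0.0631).

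Arf6, a GTPase of plasma membrane recycling, read -1.18, -2.05 and -1.54 in Sec15 KO liver and -2.34, -2.27 and -2.33 in WT liver. Its difference of 0.72 (SE 0.22) did not pass (adjusted p = 0.0549), and it was 0.26 within scan 1. Rab10, a partner of insulin-driven exocytosis, differed by 0.22 (SE 0.11, adjusted p = 0.16). After cyclic loess the difference of Rab10 was -0.01. Rhoq, also called TC10 and a GTPase of the same pathway, differed by 0.08 (SE 0.12, adjusted p = 0.625). Rab13, a GTPase of tight junctions, was well above background on 1 array and was not tested.

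Of the adaptors and motors that link these GTPases to vesicles, 6 of 7 were tested, and 1 rose. Rab3ip, also called Rabin8, is the exchange factor that loads Rab8 and a Rab11 effector. It read 2.32, 2.14 and 2.30 in Sec15 KO liver and 1.88, 1.80 and 1.79 in WT liver. Rab3ip rose by 0.43 (SE 0.10, 1.35-fold, limma adjusted p = 0.0245) without overlap, and lost its call within scan 1 (0.32, adjusted p = 0.102) and after cyclic loess (0.21, adjusted p = 0.108). Myo5b, the motor that moves Rab11 vesicles to the bile canaliculus, read 0.87, 1.05 and 0.90 in Sec15 KO liver and 0.66, 0.46 and 0.66 in WT liver. Its difference of 0.35 (SE 0.11) did not pass (adjusted p = 0.0574) and its second probe differed by 0.01. Rab11fip5 differed by 0.53 (SE 0.17, adjusted p = 0.0596) and Rab11fip2, which ties Rab11 to Myo5b, by 0.31 (SE 0.14, adjusted p = 0.125). Rab11fip1 and Rab11fip3 both differed by -0.24 and did not pass (adjusted p = 0.247 and 0.142). Myo5a was well above background on 2 arrays and was not tested.

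Of 13 early endosome and recycling Rabs tested, 3 rose, 1 fell and the median difference was 0.09. The 3 were Rab5a, Rab5c and Rab35, and the 1 was Rab22a. Rab5a, the GTPase of early endosome fusion, read 1.85, 1.41 and 1.73 in Sec15 KO liver and 0.84, 0.78 and 0.82 in WT liver. All its WT values lay within 0.1 of each other and well under the lowest Sec15 KO value. It rose by 0.85 (SE 0.13, 1.80-fold, limma adjusted p = 0.0116), by 0.60 within scan 1 (adjusted p = 0.0398 with scan as a block) and by 0.67 after cyclic loess (adjusted p = 0.0143). Its second probe rose as well, by 0.58 (limma adjusted p = 0.0319 over all probes), again without overlap. Without Sec15 KO replicate 3 the adjusted p of Rab5a was 0.0594 and without WT replicate 3 it was 0.0635. Rab5a is the one member with several probes of which more than 1 passed in the same direction.

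RefSeq promoters matched 57 of the 69 members, with 71 start sites, and 14 of the 17 called members (all but Rab2a, Rab30 and Rab37). Among those 14, Rab5a held more than 1 of 3 motifs searched, and its promoter is shown for that reason. The motifs were the STAT-type TTCNNNGAA, the E-box CACGTG and the cyclic AMP response element (CRE) TGACGTCA. Each is its own reverse complement, so both strands were covered, and none of the matches printed here overlaps another. The 250 bases before the start of Rab5a (RefSeq, GRCm38.p6, chr17:53478984-53479233, + strand) hold 2 E-boxes, at -235 and -95, and a CRE at -28, in capitals, with positions counted from the start site to the first base of the match.
Rab5a: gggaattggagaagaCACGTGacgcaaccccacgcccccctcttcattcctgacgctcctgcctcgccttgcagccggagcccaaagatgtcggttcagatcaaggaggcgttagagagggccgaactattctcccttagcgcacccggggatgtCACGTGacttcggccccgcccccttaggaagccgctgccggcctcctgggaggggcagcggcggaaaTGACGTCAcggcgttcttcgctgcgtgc
Of the other called members with a promoter, 3 held 1 match each in the window of 250 bases before to 50 after the start. These were a CRE in Cdc42 at 35 (chr4:137357710-137357735, - strand), a STAT-type match in Rab11a at -199 (chr9:64737937-64737965, - strand) and an E-box in Rab24 at 2 (chr13:55321961-55321990, - strand). The lines below show these matches in capitals with the bases around them.
Cdc42: cccctgcgtgcTGACGTCAggcgcgt
Rab11a: tacacttcgcTTCTCTGAAtgattgggga
Rab24: cggcgcccgcgtCACGTGaccgggcgtccc
The STAT-type motif was in 8.45% of the 71 member promoters and in 8.30% of all 32851, the E-box in 9.86% and 7.15%, and the CRE in 5.63% (4 promoters) and 1.79%. The median GC content was 62.7% in the member promoters and 52.7% in all. Of 12 promoters of members called higher, 1 held the STAT-type motif, 2 an E-box and 2 a CRE. The 2 promoters of members called lower held 0 of each. Of 47 promoters of members not called, 5 held the STAT-type motif, 3 an E-box and 2 a CRE, not printed here. A match describes the letters alone.

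Rab5c, a close relative of Rab5a on early endosomes, read 3.40, 3.46 and 3.48 in Sec15 KO liver and 3.03, 3.01 and 3.01 in WT liver. Its groups were tight and did not overlap. It rose by 0.43 (SE 0.08, 1.35-fold, limma adjusted p = 0.0179). The difference was 0.44 within scan 1 (adjusted p = 0.057) and 0.16 after cyclic loess (adjusted p = 0.209), and both settings ended the call. Rab35, a GTPase of fast recycling, read 1.1, 0.94 and 1.07 in Sec15 KO liver and 0.38, 0.53 and 0.48 in WT liver. It rose by 0.57 (SE 0.10, 1.49-fold, limma adjusted p = 0.0136), with 0.47 within scan 1 (adjusted p = 0.0594). Rab22a, which sorts cargo from early endosomes to recycling tubules, read 0.79, 0.64 and 0.82 in Sec15 KO liver and 1.11, 1.51 and 1.44 in WT liver. It fell by 0.60 (SE 0.14, 1.52-fold lower, limma adjusted p = 0.0261). The difference of Rab22a was -0.72 within scan 1 (adjusted p = 0.0686) and -0.77 after cyclic loess (adjusted p = 0.0182).

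Rab5b was read by 4 probes that passed the filter, all with a negative difference. The brightest, used for the gene, differed by -0.05 (adjusted p = 0.85). Probe A_55_P2107468, singled out after its values were seen, read -3.56, -3.04 and -3.49 in Sec15 KO liver and -2.54, -1.80 and -2.35 in WT liver. That probe fell by 1.13 (SE 0.24, limma adjusted p = 0.0224 over all probes). Probe A_52_P407022 of Rab5b was well above background on all WT arrays and on no Sec15 KO array, and was at least 1.25-fold lower in Sec15 KO liver (adjusted p = 0.0912, not past the threshold). Such a bound sets the WT mean against the higher, on each Sec15 KO array, of the probe's own signal and the lowest signal well above background. Rab4b, a fast recycling GTPase, showed the same pattern of detection, and its Sec15 KO mean was at least 1.42-fold lower (adjusted p = 0.11, not past the threshold). Its groups overlapped, with Sec15 KO replicate 2 at -3.5 and WT replicate 3 at -3.53, and the difference within scan 1 was -0.13. The Rab4b probe and probe A_52_P407022 passed the filter through the WT arrays alone. The other early endosome Rabs did not pass. Rab14, Rab17, Rab34, Rab20, Rab4a and Rab21 differed by between 0.04 and 0.33, and Rab15 by -0.64 (adjusted p = 0.0527). Rab31 was not tested.

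Of 9 late endosome and lysosome-related Rabs tested, 2 rose, 1 fell and the median difference was 0.15. Rab29, a relative of Rab32 and Rab38 at the trans-Golgi and lysosomes, was the member that differed most. It read 0.54, 1.56 and 0.46 in Sec15 KO liver and 2.65, 3.36 and 3.05 in WT liver. The groups were far apart, and Sec15 KO replicate 2 stood about 1 log2 unit above the other 2 Sec15 KO arrays. Rab29 fell by 2.17 (SE 0.34, 4.49-fold lower, limma adjusted p = 0.0116). The difference was -1.46 within scan 1 (adjusted p = 0.0434 with scan as a block) and -2.39 after cyclic loess (adjusted p = 0.0131). It was -1.97 without Sec15 KO replicate 3 (adjusted p = 0.0533) and -2.15 without WT replicate 3 (adjusted p = 0.0608). Its other probe, A_66_P112164, read 0.80, 0.43 and 0.74 in Sec15 KO liver and 0.74, 0.42 and 0.55 in WT liver. That probe differed by 0.09 with overlapping groups (limma adjusted p = 0.658), so the fall of Rab29 rests on 1 of its 2 probes.

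Rab32, which serves lysosome-related organelles and mitochondria, read 1.70, 1.57 and 1.69 in Sec15 KO liver and 1.18, 0.90 and 0.94 in WT liver. It rose by 0.65 (SE 0.11, 1.57-fold, limma adjusted p = 0.0142), with 0.57 within scan 1 (adjusted p = 0.0699). Rab24, a GTPase linked to autophagy, read 1.16, 0.75 and 1.04 in Sec15 KO liver and 0.51, 0.34 and 0.50 in WT liver. It rose by 0.53 (SE 0.14, 1.44-fold, limma adjusted p = 0.0356), with 0.29 within scan 1 (adjusted p = 0.174) and 0.38 after cyclic loess (adjusted p = 0.0626). Both genes had no overlap between groups. Rab7, the main GTPase of late endosomes, differed by 0.15 (SE 0.17, adjusted p = 0.517) with overlapping groups. Rab9, of traffic from endosomes to the Golgi, differed by 0.12 (adjusted p = 0.349), Rab12 by 0.16 (adjusted p = 0.343) and Rab38 by 0.11 (adjusted p = 0.751). Rab9b and Rab7b differed by -1.03 and 0.79 and did not pass (adjusted p = 0.0787 and 0.116), and Rab7b was well above background on 2 of 3 WT arrays.

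Of 12 Rabs of the ER, the Golgi and lipid droplets tested, 3 rose and none fell. A positive difference was found in 11 of them and in 54.6% of all genes. Their median was 0.27 (0.13 within scan 1). Their median brightness percentile was 72.1, and all genes of decile 8 had a median difference of 0.21. Rab30, a Golgi Rab, read 0.66, 0.86 and 0.92 in Sec15 KO liver and -0.19, -0.26 and -0.18 in WT liver. It rose by 1.02 (SE 0.10, 2.03-fold, limma adjusted p = 0.00623), by 1.06 within scan 1 (adjusted p = 0.028 with scan as a block) and by 0.90 after cyclic loess (adjusted p = 0.00686). The Sec15 KO arrays of both scans lay close together and about 1 log2 unit above WT. Its second probe differed by 0.34 and did not pass (limma adjusted p = 0.13).

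Rab1a, which drives transport from the ER to the Golgi, read 3.39, 3.10 and 3.35 in Sec15 KO liver and 2.68, 2.53 and 2.55 in WT liver. It rose by 0.69 (SE 0.12, 1.62-fold, limma adjusted p = 0.0133) without overlap, with 0.51 within scan 1 (adjusted p = 0.0553). Rab2a, which acts between the Golgi and the ER, read 1.23, 0.61 and 1.05 in Sec15 KO liver and 0.30, -0.18 and 0.06 in WT liver. It rose by 0.90 (SE 0.20, 1.87-fold, limma adjusted p = 0.0252) without overlap. The difference of Rab2a was 0.55 within scan 1 (adjusted p = 0.138). Rab18, the lipid droplet Rab, read 3.58, 2.74 and 3.44 in Sec15 KO liver and 2.75, 2.46 and 2.67 in WT liver. Its groups overlapped through Sec15 KO replicate 2, and its difference of 0.63 (SE 0.24) did not pass (adjusted p = 0.0927). Rab6b, Rab6a, Rab43, Rab1b, Rab33b, Rab33a and Rab19 differed by between 0.04 and 0.64, and Rab2b by -0.04, none past the threshold.

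Of 6 Rabs of regulated secretion tested, 1 rose and 1 fell. Rab37, a GTPase of secretory granules, read -2.21, -2.68 and -2.20 in Sec15 KO liver and -1.87, -1.12 and -0.90 in WT liver. It fell by 1.07 (SE 0.28, 2.10-fold lower, limma adjusted p = 0.0382), and the call ended with scan as a block (-1.39, adjusted p = 0.0779) and after cyclic loess (-1.04, adjusted p = 0.0585). Its second probe differed by -0.52 (limma adjusted p = 0.136). Rab3c, of the Rab3 group best known from synaptic vesicles, read 6.92, 6.98 and 7.09 in Sec15 KO liver and 6.69, 6.68 and 6.65 in WT liver. It rose by 0.32 (SE 0.09, 1.25-fold, limma adjusted p = 0.0441), and the call ended with scan as a block (0.31, adjusted p = 0.135). The difference was 0.03 after cyclic loess (adjusted p = 0.80) and turned to -0.01 after normexp background correction with quantile normalisation (adjusted p = 0.911). A second Rab3c probe, A_55_P2182222, also detected on all 6 arrays, differed by 0.20, which did not pass (limma adjusted p = 0.168), so the rise rests on 1 of 2 detected probes. A further probe, A_55_P1956567, was well above background on 0 arrays. Rab3b differed by 0.59 and did not pass (adjusted p = 0.0547), although it did after cyclic loess (0.72, adjusted p = 0.0265). Rab27b, Rab3a and Rab3d differed by between -0.08 and 0.22. Of the 4 other Rabs tested none passed. The smallest p among them was that of Rab42 (-0.31, adjusted p = 0.0939), then that of Rab28 (0.32, adjusted p = 0.151), with Rab40b at -0.40 and Rab40c at 0.07. Rab42 was well above background on 2 of 3 Sec15 KO arrays. Rab23, Rab26, Rab27a, Rab39 and Rab39b were well above background on at most 2 arrays and were not tested.

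**Figure D3:**
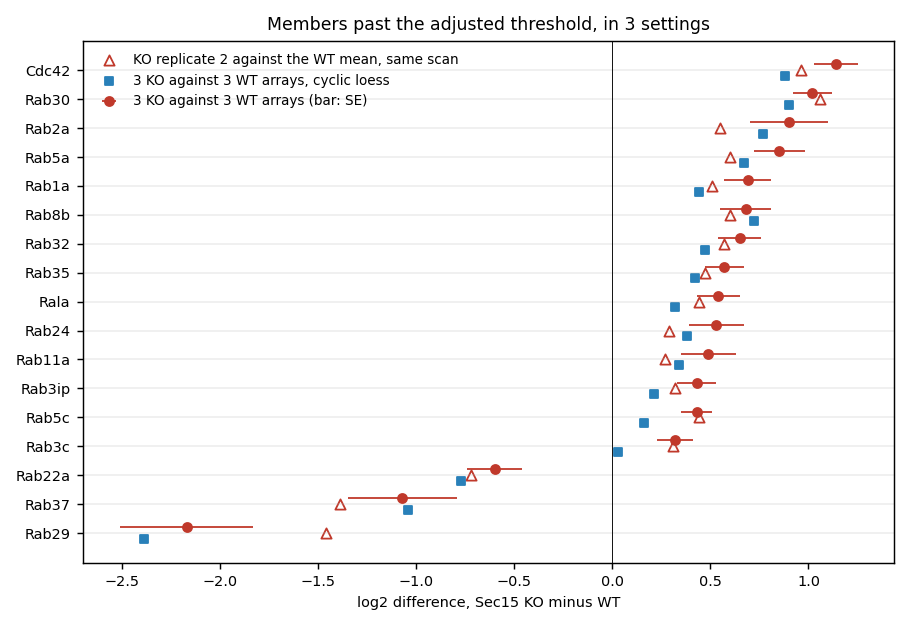
Log2 difference of Sec15 KO minus WT for the 17 members past the adjusted threshold: all 6 arrays with the standard error (circles and bars), all 6 arrays after cyclic loess (squares), and Sec15 KO replicate 2 against the WT mean within scan 1 (triangles). Every point keeps the side of its circle. Rab3c comes nearest to 0 after cyclic loess, at 0.03.

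Probes of 1 gene did not always read alike. Of the 61 members, 41 were read by 1 probe that passed the filter and 20 by several. Tested probe by probe, 28.6% of the 27024 probes on the array passed. The signs differed between probes of Rab29, Rab38 and Rab4a, and among these 3 only Rab29 had a probe past the threshold. Which transcripts each probe reads was not analysed here.

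**Figure D4:**
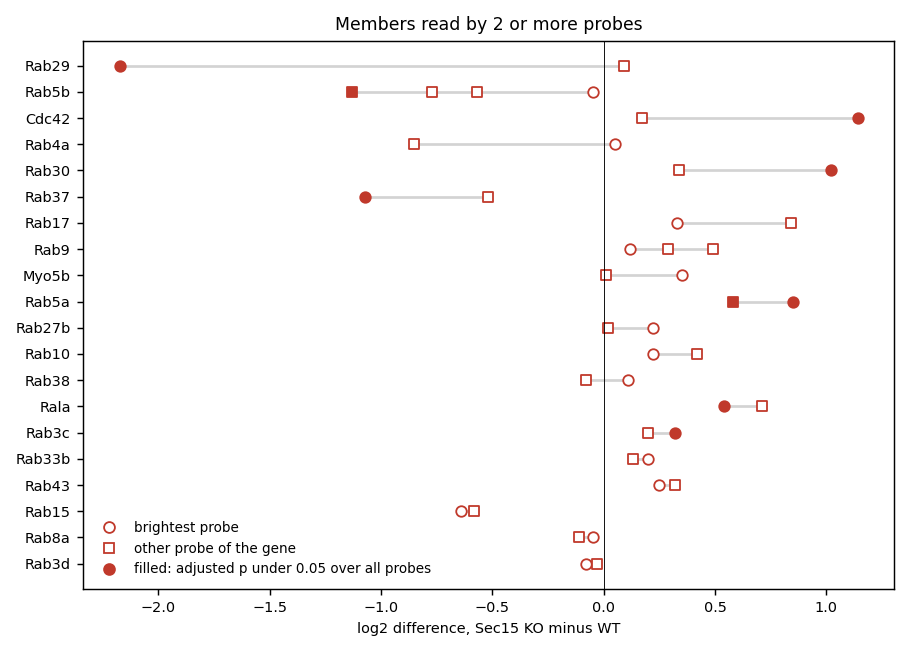
Log2 difference of Sec15 KO minus WT for every probe of the 20 members with several probes that passed the filter, with the brightest probe as a circle, the others as squares, and filled symbols for an adjusted p under 0.05 over all probes. Rab29 has the widest gap, between -2.17 and 0.09, and Rab5a has both probes filled.

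Close paralogues were set against each other within each array, after their values had been seen, because such a ratio does not move with a scaling common to all probes of an array. The trend with brightness described above does not cancel in it where the 2 probes differ in brightness. All 20 pairs of tested members that share a number, with Rala and Ralb, were put through an exact permutation test (two-sided), whose smallest value of 0.1 is 0.143 after Benjamini-Hochberg adjustment, so no pair could pass. The probes differ in brightness, so the level of a ratio cannot be read. The difference between the groups can be, with that trend still in it. The log2 ratio of Rab8a over Rab8b was 1.50 ± 0.10 in Sec15 KO liver and 2.23 ± 0.20 in WT liver (SD, n = 3 each, exact permutation p = 0.1), a difference of -0.73, or -0.67 within scan 1. The ratio of Rab11a over Rab11b was 0.38 ± 0.02 in Sec15 KO liver and -0.09 ± 0.15 in WT liver (SD, n = 3 each, exact permutation p = 0.1), a difference of 0.47, or 0.49 within scan 1. For Rab5a over Rab5b, on the brightest probe of each, the ratio was -0.36 ± 0.06 in Sec15 KO liver and -1.26 ± 0.26 in WT liver (SD, n = 3 each, exact permutation p = 0.1). In these 3 pairs the Sec15 KO arrays lay on one side of the WT arrays, as they did in 14 of the 20 pairs, and in 6 they overlapped. Taken singly, 30.6% of all genes had every Sec15 KO value above WT and 20.2% every value below. No such share was computed for ratios of other genes. Several pairs share a gene, so the 20 are not separate observations. The pair that differed most was Rab9 over Rab9b, by 1.14, with 0.48 within scan 1. The brightness percentile was 92.2 for Rab9 and 43.8 for Rab9b. Rab1a over Rab1b differed by 0.48 and Rab2a over Rab2b by 0.95, both without overlap. Rala over Ralb differed by 0.24, with overlapping groups, and by 0.01 within scan 1.

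The genes that act on these GTPases were read from 6 lists, with 135 of 154 genes on the array tested. Of the 135, 30 rose and 12 fell, with a median difference of 0.13, next to 17.4% and 12.2% of all genes. With scan as a block 7 rose and 3 fell, next to 5.08% and 4.68% of all genes. After cyclic loess 21 rose and 11 fell, next to 10.8% and 12.5% of all genes. The counts of each list below are to be read beside the 17.4% and 12.2% of all genes in the main fit.

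Of 10 tested genes of Rab prenylation and the membrane cycle, which attach the lipid tail and extract Rabs from membranes, 1 rose and none fell, with a median of 0.32. Pggt1b, the beta subunit of the prenyl transferase that modifies Ral GTPases, rose by 0.88 (SE 0.23, limma adjusted p = 0.0361), and was well above background on 2 of 3 WT arrays. Its call ended with scan as a block (0.87, adjusted p = 0.152). Of 31 Rab exchange factors, 8 rose and 1 fell. Madd, which loads Rab3 and Rab27, read 6.86, 6.66 and 6.84 in Sec15 KO liver and 6.02, 5.67 and 5.84 in WT liver. It rose by 0.94 (SE 0.13, limma adjusted p = 0.00846), with 0.82 within scan 1 (adjusted p = 0.0449). Sh3bp5l, of a family that loads Rab11, read 1.45, 1.41 and 1.46 in Sec15 KO liver and 0.78, 0.74 and 0.76 in WT liver. It rose by 0.68 (SE 0.08, limma adjusted p = 0.00755), with 0.64 within scan 1 (adjusted p = 0.0312). Trappc10, a subunit of the TRAPPII complex, rose by 0.52 (limma adjusted p = 0.0158), with 0.63 within scan 1 (adjusted p = 0.0364). Rgp1, which with Ric1 loads Rab6, fell by 1.06 (SE 0.22, limma adjusted p = 0.0206), and its call ended with scan as a block (-1.02, adjusted p = 0.103).

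Of 33 GTPase-activating proteins for Rabs, 8 rose and 5 fell. Tbc1d12, which has been tied to Rab11 recycling endosomes, read -0.95, 0.10 and -0.71 in Sec15 KO liver and 1.80, 3.11 and 2.62 in WT liver. It fell by 3.03 (SE 0.41, limma adjusted p = 0.00894), with -2.41 within scan 1 (adjusted p = 0.0503). Tbc1d10a, which acts on Rab35 and Rab27a, read -1.49, -1.13 and -1.43 in Sec15 KO liver and 0.002, 0.54 and 0.21 in WT liver. It fell by 1.60 (SE 0.18, limma adjusted p = 0.00667), with -1.39 within scan 1 (adjusted p = 0.0342). Both genes had all Sec15 KO values far under WT. Tbc1d22b fell by 0.39 (adjusted p = 0.0254), with -0.41 within scan 1, where the call was lost (adjusted p = 0.0686). Usp6nl, an activating protein for Rab5, rose by 0.73, Tbc1d1, which acts on Rabs of glucose transporter traffic, by 0.64, and Tbc1d16, which acts on Rab4a, by 0.63 (limma adjusted p = 0.0179, 0.0152 and 0.0112). With scan as a block Usp6nl and Tbc1d1 lost their calls (adjusted p = 0.0716 and 0.0513, with differences of 0.47 and 0.72), while Tbc1d16 kept its call (0.74, adjusted p = 0.0304).

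Of 32 other Rab effectors, 6 rose and 4 fell, with a median of 0.07. Among those that rose were Eea1, the early endosome tether of Rab5, by 0.47 (adjusted p = 0.0346), Rbsn, a further Rab5 effector, by 0.48 (adjusted p = 0.0357), and Appl1, a Rab5 effector of signalling endosomes, by 0.46 (limma adjusted p = 0.0322). All 3 lost their calls with scan as a block, where Eea1 differed by 0.40 (adjusted p = 0.156), Rbsn by 0.31 (adjusted p = 0.182) and Appl1 by 0.43 (adjusted p = 0.128). Ankfy1, also a Rab5 effector, was well above background on all WT arrays and on no Sec15 KO array. It therefore passed the filter on dim probes through WT alone, where it is higher, and its p-value adds no separate support. Ankfy1 is counted among the 4 that fell, and was at least 2.34-fold lower in Sec15 KO liver (limma adjusted p = 0.0231). With scan as a block its adjusted p was 0.108. Doc2b, a calcium sensor of exocytosis, fell by 0.61 (adjusted p = 0.0352), and Sytl1, a Rab27 effector, fell by 0.49 (limma adjusted p = 0.0211). With scan as a block Doc2b kept its call (-0.85, adjusted p = 0.048) and Sytl1 lost it (-0.36, adjusted p = 0.091).

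Of 21 regulators and effectors of Ral and Arf6, 7 rose and 1 fell. Ralgps1, an exchange factor that loads Ral, read 4.55, 4.16 and 4.53 in Sec15 KO liver and 3.20, 2.88 and 3.07 in WT liver. The lowest Sec15 KO value was almost 1 log2 unit over the highest WT value. Ralgps1 rose by 1.37 (SE 0.15, 2.58-fold, limma adjusted p = 0.0067), with 1.11 within scan 1 (adjusted p = 0.0291) and 1.1 after cyclic loess (adjusted p = 0.00701). Its relative Ralgps2 rose by 0.61 (limma adjusted p = 0.0132), and Cyth1, an Arf exchange factor, by 0.50 (adjusted p = 0.0134). Both lost their calls with scan as a block, with 0.47 for Ralgps2 (adjusted p = 0.0528) and 0.49 for Cyth1 (adjusted p = 0.0508). Iqsec1, an exchange factor for Arf6, read -2.23, -1.30 and -2.37 in Sec15 KO liver and -0.65, -0.20 and -0.50 in WT liver. It fell by 1.52 (SE 0.31, limma adjusted p = 0.0194), with -0.85 within scan 1 (adjusted p = 0.0598). Of 8 exocyst subunits tested, none rose and 1, Exoc6b, fell, by 0.53 (limma adjusted p = 0.0426). The difference of Exoc6b was -0.58 within scan 1 (adjusted p = 0.128).

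**Figure D5:**
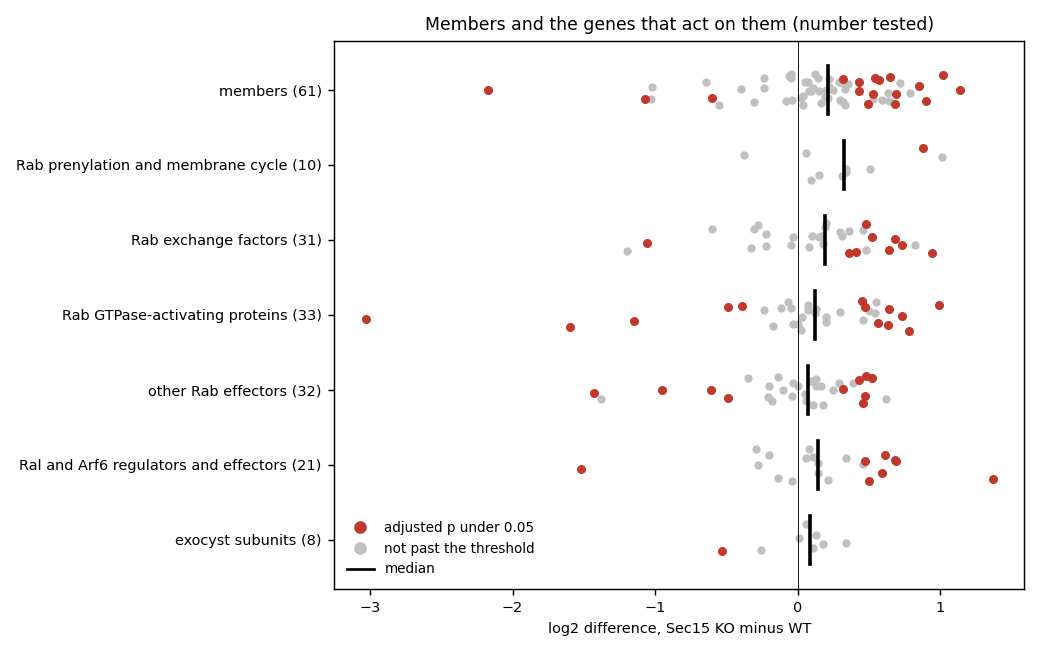
Log2 difference of Sec15 KO minus WT (horizontal axis) for each tested member and for each tested gene of the 6 lists, with the number tested in brackets, red for an adjusted p under 0.05 and a black line at the median. Medians lie between 0.07 and 0.32, and the point farthest from 0 is Tbc1d12 at -3.03.

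Summed markers of several other liver cells lay apart between the groups, though single markers did not all move the same way. The log2 of the summed signal of 7 Kupffer cell markers was between 5.44 and 5.81 in Sec15 KO liver and between 5.00 and 5.01 in WT liver, and 3 of them rose. That of 6 endothelial markers was between 4.69 and 5.12 in Sec15 KO liver and between 4.40 and 4.45 in WT liver, with 3 that rose. Pecam1 among them differed by -0.39 and did not pass (limma adjusted p = 0.167). For 6 red cell markers the sum was between 5.34 and 5.79 in Sec15 KO liver and between 4.03 and 4.22 in WT liver. Of these 3 rose, while Alas2 differed by 0.02 (limma adjusted p = 0.953). For 5 neutrophil markers the sum was between 3.03 and 3.73 in Sec15 KO liver and between 2.61 and 2.77 in WT liver. Of these 2 rose, while Elane differed by -0.30 and did not pass (limma adjusted p = 0.103). The stellate cell markers summed to between 2.30 and 2.39 in Sec15 KO liver and between 1.62 and 1.86 in WT liver. Of these 2 of 5 rose, and Des and Reln were above background on no array. Pdgfrb differed by -0.12 and did not pass (limma adjusted p = 0.503). The lymphocyte markers summed lower, to between 2.46 and 2.51 in Sec15 KO liver and between 2.89 and 2.90 in WT liver. Of the 6, 3 fell, while Cd3d, Cd79a and Ms4a1 differed by 0.40, 0.23 and 0.21. Those 3 did not pass (limma adjusted p = 0.354, 0.429 and 0.227). Hepatocyte markers were between 11.51 and 11.72 in Sec15 KO liver and between 11.32 and 11.48 in WT liver (2 of 8 rose). Bile duct, platelet and pancreas markers had overlapping sums. Of 9 pancreas markers 5 fell and 1 rose, of 5 bile duct markers 1 fell, and of 5 platelet markers 1 rose. The part of these cells in the Rab and Ral differences was not tested.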

How the data were processed

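Total RNA of liver was measured on 6 one-colour arrays, 1 per sample. Per the file headers, the authors deposited one Agilent Feature Extraction 11.0.1.1 scanner file per array: intensity per spot, background-subtracted and not normalised between arrays, with other columns of flags (0 or 1) that mark saturated spots, outliers and spots well above background. No spot was saturated. Groups and replicate numbers come from the labels.

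Spots of a probe were averaged over 43020 non-control spots per array, without outlier spots (178 to 236 per array), and each array's 75th percentile of the log2 processed signal was subtracted. Probes well above background on at least 3 of 6 arrays were kept (27024), and the brightest probe stood for a gene. Probe accessions were matched to RefSeq symbols of GRCm38.p6 (27234 probes with 1 symbol, 12195 with none). The groups were compared in R 4.3.3 by lmFit and eBayes of limma 3.58.1, with data.table (version 1.17.8) and jsonlite (version 2.0.0). Benjamini-Hochberg adjustment ran over all genes tested, at 0.05, and the code was checked on simulated data. The number of arrays limits the precision.

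The members and lists were chosen with earlier results of these data known, so no count over them is independent evidence. Named were all tested members that face the exocyst, of each other role those past the threshold or else the 2 with the smallest p, members with a bound or with probes of opposite sign, and up to 3 pathway genes per direction and list. The remaining members are given by their differences to account for all, outside that rule. Deviations of same-numbered samples from their group means correlated by 0.11, 0.11 and 0.016. Those of differently numbered samples correlated by between -0.111 and 0.043. All these values are small, and the numbers were not taken to pair samples.

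The alternatives were quantile normalisation, median centring, cyclic loess, normexp (offset 50, on the median spot and background signals, as no mean signal was used) before quantile normalisation, a stricter filter (all 6 arrays), no filter, eBayes with trend and robust, the mean of a gene's probes, every probe on its own, the replicate number or the scan as a block, scan 1 alone, the mean of WT replicates 1 and 2 as 1 sample, and each array left out in turn. Array weights did not converge and were not used.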

Additional observations from a re-analysis of the deposited data

How the results depend on the processing

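Leaving out 1 array gave between 2 and 21 members higher (main 14), between 0 and 5 lower (main 3) and a median difference between 0.17 and 0.26 (main 0.21). For the pathway lists it gave between 1 and 44 higher (main 30), between 1 and 14 lower (main 12) and a median between 0.12 and 0.16 (main 0.13). Without Sec15 KO replicate 3, and likewise without WT replicate 3, 2 members were higher, Cdc42 and Rab30, and none was lower, while 4.36% and 2.70% of all genes passed. Shares of all genes follow each count in brackets. Without Sec15 KO replicate 1, 5 members were higher (6.51%) and 1 lower (5.23%), and without WT replicate 2, 4 (5.20%) and 1 (4.70%). Without WT replicate 1, 13 were higher (15.4%) and 5 lower (11.0%), and without Sec15 KO replicate 2, 21 (25.1%) and 4 (22.2%). With scan as a block 3 members were higher (5.08%) and 1 lower (4.68%), with a median of 0.14, and 7 and 3 pathway genes were. On the arrays of scan 1 alone limma called 0 members, 0 pathway genes and 0 of all genes, where the single Sec15 KO array takes its spread from WT. At an unadjusted p under 0.05 it called 20 members, 31 pathway genes and 29.6% of all genes there, and the median over members was 0.14. Median centring left 1 member and 6 pathway genes lower (9.88%), with medians of 0.33 and 0.25, while the median of all genes moved to 0.18. Cyclic loess gave medians of 0.10 and 0.03, and normexp with quantile normalisation 0.13 for the members. The filter on all 6 arrays gave 5 members lower (12.9%), as did averaging WT replicates 1 and 2 (10.5%), and no filter gave 17 pathway genes higher (8.06%). Rab3c turned to -0.01 after normexp with quantile normalisation. The other 16 called members kept their direction in all 19 settings, and Cdc42 and Rab30 lost their calls in scan 1 alone. With the replicate number as a block, though the numbers were not taken to pair samples, 15 members were higher (12.8%) and 2 lower (10.5%). The median was 0.21, and 20 pathway genes were higher and 8 lower (median 0.13). That block kept 14 of the 17 member calls. The array weights could not be fitted. The cause of these changes was not tested. Where 1 array was left out, the fit also held fewer arrays, and that part was not tested either.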

Other observations

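Further genes that act on these GTPases passed the test and stood outside the rule for naming, so they were chosen after their values were seen. Both catalytic subunits of the Ral GTPase-activating complex were higher in Sec15 KO liver: Ralgapa1 by 0.68 (SE 0.13, limma adjusted p = 0.0177) and Ralgapa2 by 0.59 (SE 0.10, limma adjusted p = 0.0136). Ralgapa2 read 0.58, 0.76 and 0.79 in Sec15 KO liver and 0.19, 0.08 and 0.08 in WT liver, and its difference was 0.65 within scan 1 (adjusted p = 0.0478). Rgl1, an exchange factor for Ral, rose by 0.69 (SE 0.16, limma adjusted p = 0.0287). With scan as a block Ralgapa1 (0.55, adjusted p = 0.0935) and Rgl1 (0.55, adjusted p = 0.156) lost their calls. Other exchange factors for Ral did not pass: Ralgds differed by 0.34 (adjusted p = 0.23), Rgl2 by 0.21 (adjusted p = 0.18) and Rgl3 by 0.14 (adjusted p = 0.324).

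Appl2, which like Appl1 binds Rab5, rose by 0.52 (SE 0.14, limma adjusted p = 0.0417). Tbc1d4, an activating protein of glucose transporter traffic like Tbc1d1, rose by 0.78 (SE 0.18, limma adjusted p = 0.0253). Both lost their calls with scan as a block, with 0.45 for Appl2 (adjusted p = 0.187) and 0.68 for Tbc1d4 (adjusted p = 0.133). Rabep1, Rabep2 and Rufy1, of the same list as Appl2, differed by 0.06, -0.03 and -0.18. They did not pass (limma adjusted p = 0.599, 0.867 and 0.348). Ehbp1, an effector of Rab8 and Rab10, read -2.26, -3.10 and -2.28 in Sec15 KO liver and -1.47, -1.42 and -1.88 in WT liver. It fell by 0.95 (SE 0.27, limma adjusted p = 0.0439), and its difference was -1.51 within scan 1 (adjusted p = 0.0291).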
